A study of Mus musculus with 9 samples.

Results

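The 10 genes described here take up, move, reduce, store or sense iron, and were chosen by name. They are the uptake gene Tfrc, the transporters Slc11a2 and Slc39a14, the exporter Slc40a1, the metalloreductases Steap1, Steap3 and Steap4, the ferritin genes Fth1 and Ftl1, and the regulator Ireb2. All 10 were among the 56289 gene IDs of the expression table, and all 10 passed the filter on low values that kept 13026 genes for testing (at least 1 FPKM, fragments per kilobase of gene model per M fragments, where M is mega, in at least 3 libraries). The list was drawn up after Tfrc and Steap4 had been seen to be higher in TNF plus WBG than in TNF, so that difference chose the members. The members' values in TNF plus WBG are therefore a description. P-values of members are given for TNF against untreated alone, a comparison that shares the TNF libraries with the one that chose the list. Calls of members in the other comparisons are named as a description, not as tests. Iron genes outside the list are tested in all 3 comparisons.

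The study sequenced poly-A RNA from 9 libraries, 3 in each of 3 groups. The TNF plus WBG group received tumour necrosis factor alpha and Wang Bi granules, a herbal preparation, for 24 h. The TNF group had the cytokine alone for the same 24 h, and the untreated group received neither and has no stated time. Doses are not in the labels, nor do the labels say whether the replicates were separate cultures, so the p-values cover library-to-library spread, which may be technical. All groups carry the label RAW264.7, a macrophage-like line from BALB/c mice, and the marker genes go against that label. The defining macrophage markers Ptprc, Itgam, Adgre1 and Tyrobp were listed at 0 in all 9 libraries, and only Cd14 and Cd68, of 15 macrophage markers, averaged at least 1 FPKM. The 15 together summed to 8.14 to 10.6 FPKM in TNF plus WBG, 7.11 to 8.15 FPKM in TNF and 6.14 to 7.50 FPKM in untreated libraries. Most of that sum was Cd14, with means of 6.64, 5.66 and 4.59 FPKM in these groups. Cd14 was itself higher in TNF plus WBG against untreated (limma adjusted p = 0.0254). Of 12 fibroblast markers, 9 averaged at least 1 FPKM, and the 12 summed to 3865 to 4040.4, 4031 to 4112 and 3740 to 3969 FPKM in the same 3 groups. Lum was listed at 0 in all libraries, and Thy1 and Loxl1 averaged 0.0117 and 0.825 FPKM. The sum, which Sparc, Col1a1, Fn1 and Col3a1 dominate, hides opposite changes in TNF against untreated: Col1a1 and Col1a2 rose (log2 0.28 and 0.27, limma adjusted p = 0.00912 and 0.00587), while Pdgfrb and Postn fell (log2 -0.51 and -0.59, limma adjusted p = 6.62e-05 and 1.31e-05). The part of these marker differences in the results on iron genes was not tested. No erythroid, hepatocyte or osteoclast marker reached a mean of 1 FPKM, and the cells are called by their group names below. In RNA from whole cultures, fewer cells of a type and less RNA per cell cannot be told apart.

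Most cells take up iron by binding transferrin, the iron carrier of blood, to the transferrin receptor and drawing both into endosomes, where a STEAP reductase turns ferric into ferrous iron and the transporter DMT1 moves it into the cytosol. Iron not used at once is held in ferritin, a shell of heavy and light chains, and leaves the cell through ferroportin. When iron is scarce, iron-regulatory proteins bind hairpins called iron-responsive elements. A hairpin in the 5′ untranslated region then blocks translation, as in ferritin and ferroportin mRNA, and hairpins in the 3′ untranslated region of transferrin receptor mRNA protect it from decay. In inflamed tissue, cytokines are known to raise ferritin and to hold iron inside cells.

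A search of GENCODE M21 transcripts (GRCm38) for this hairpin found it in the untranslated regions of 4 of the 10 members. The pattern was a bulged C, 5 paired bases with G-U pairs allowed, and a loop CAGTGN whose last base is not G. Of 21901 protein-coding genes, 123 (0.562%) held a match in an untranslated region. The matches are printed because their place differs between members, in the 5′ untranslated region of Fth1, Ftl1 and Slc40a1 and in the 3′ untranslated region of Tfrc. The loop is in capitals.
Fth1, 5′ untranslated region, chr19:9982732-9982760, plus strand: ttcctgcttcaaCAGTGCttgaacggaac
Ftl1, 5′ untranslated region, chr7:45459779-45459807, minus strand: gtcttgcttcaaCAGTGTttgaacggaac
Slc40a1, 5′ untranslated region, chr1:45925465-45925493, minus strand: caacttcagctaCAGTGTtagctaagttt
Tfrc, 3′ untranslated region, chr16:32631219-32631247, plus strand: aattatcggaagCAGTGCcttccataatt
Tfrc, 3′ untranslated region, chr16:32631598-32631626, plus strand: cattatcgggagCAGTGTcttccataatg
Tfrc, 3′ untranslated region, chr16:32631663-32631691, plus strand: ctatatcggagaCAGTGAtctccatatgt
Tfrc, 3′ untranslated region, chr16:32631710-32631738, plus strand: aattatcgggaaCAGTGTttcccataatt
The 4 Tfrc matches lie in 1 untranslated region. The search demands a strict hairpin, so no match in another member says only that these letters were not found there.

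The ferritin genes were by far the highest of the members in every group, and ferroportin was the lowest. Ordered by mean FPKM, TNF plus WBG libraries ran Ftl1, Fth1, Tfrc, Steap4, Slc11a2, Ireb2, Steap1, Slc39a14, Steap3 and Slc40a1, and no neighbours in that order overlapped between libraries. TNF libraries kept the same order, with Steap4, Slc11a2, Ireb2 and Steap1 overlapping from each to the next. In untreated libraries Steap4 stood ninth of the 10, ahead of Slc40a1 alone, and the overlapping neighbours were Steap1 with Slc39a14 and Slc11a2 with Steap3.

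**Figure D1:**
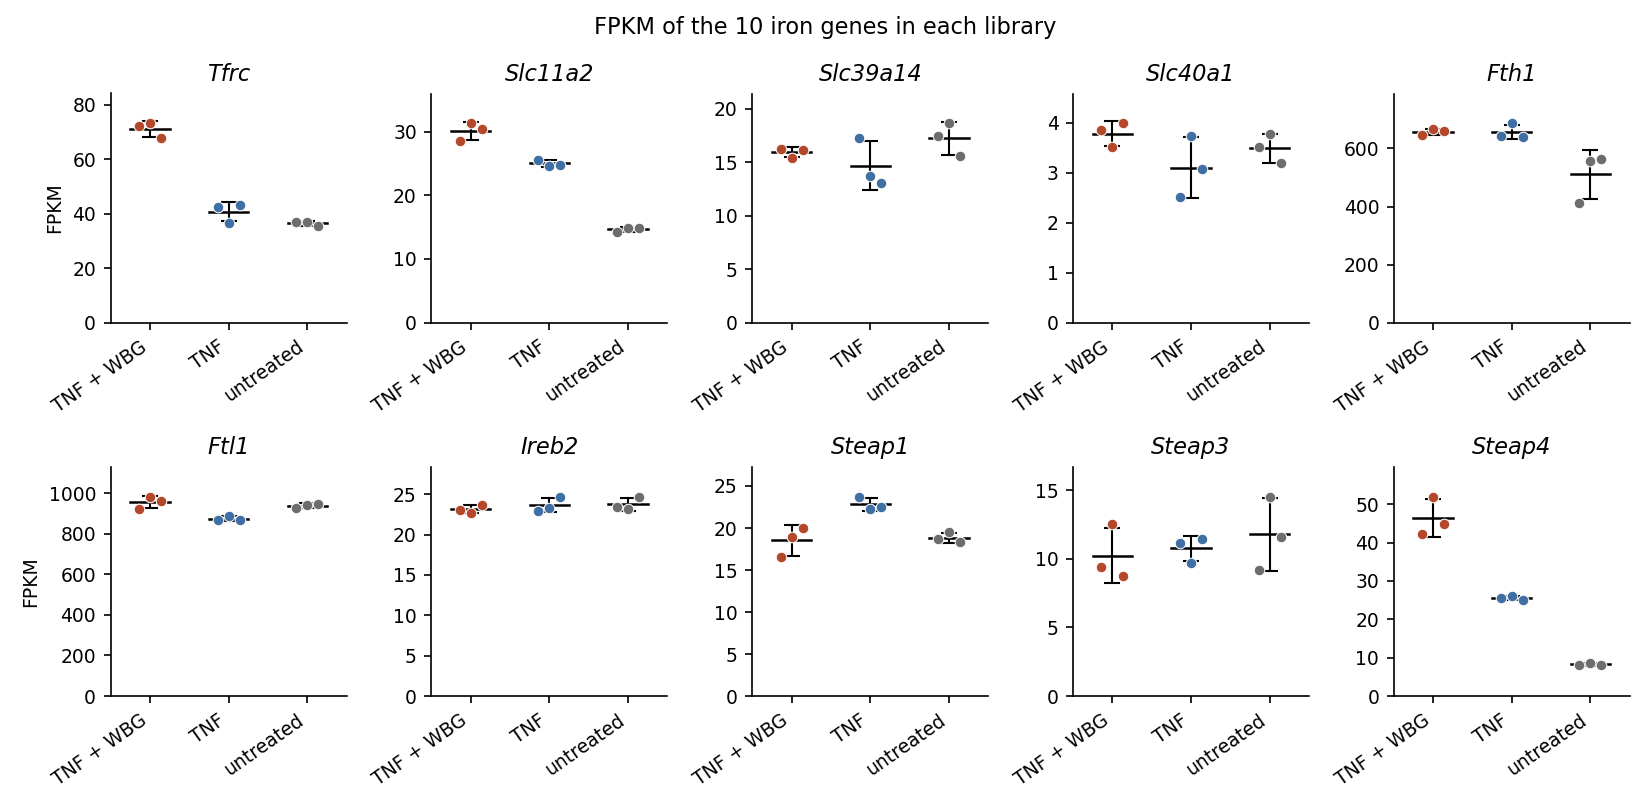
FPKM of the 10 members in each library, 1 panel a gene, with points for libraries, horizontal lines for the mean and whiskers for the SD (n = 3). Steap4 sat between 42.3 and 51.9 FPKM in TNF plus WBG libraries, above TNF (25.04 to 25.9) and untreated (8.00 to 8.61) libraries, whereas Ireb2 sat between 22.7 and 24.7 FPKM throughout.

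TNF against untreated asks how the cytokine alone moved these genes. Steap4 and the transporter Slc11a2 rose, Steap1 rose by less, and no member fell past the test. These 3 of 10 compare with 10.6% of all 13026 genes called in either direction by limma at a Benjamini-Hochberg adjusted p under 0.05, with 6.43% called higher and 4.21% called lower. Steap4 helped choose the list through a difference that uses the same TNF libraries, so nothing is read from this count. The same limit holds for the median log2 fold change, which was 0.07 over the members and 3.4e-05 over all genes. It holds too for the groups, which did not overlap for 5 members, against 30.0% of all genes in either direction.

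The comparison of TNF plus WBG with TNF sets the granules with the cytokine against the cytokine alone. No group had the granules alone, so differences that need the cytokine and those that do not cannot be told apart. Tfrc and Steap4 were higher in TNF plus WBG and were among the 13 genes called there, 0.0998% of those tested (0.0691% higher and 0.0307% lower), but both were known when the list was made and nothing is read from the count. The other 8 members were not among the called genes, and Slc11a2, Ftl1 and Steap1 also had groups that did not overlap. Groups that do not overlap occurred for 14.7% of all genes in this comparison. The members' median log2 fold change was 0.12, against -0.003 over all genes. That median includes Tfrc and Steap4, whose values here chose the list, so nothing is read from it. TNF plus WBG against untreated had Tfrc, Slc11a2 and Steap4 among the called genes, all higher, where 9.19% of all genes were called, 5.52% higher and 3.67% lower. It holds the same TNF plus WBG libraries whose values chose the list, so nothing is read from that count either. Groups did not overlap for 4 members there, against 28.1% of all genes, with the same limit. The comparisons share libraries, so their values for a gene are tied.

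Tfrc encodes the transferrin receptor, which brings iron-loaded transferrin into the cell. It had 72.2, 73.2 and 67.8 FPKM in TNF plus WBG, 42.3, 36.7 and 43.1 FPKM in TNF, and 37.1, 37.1 and 35.4 FPKM in untreated libraries. Every TNF plus WBG library lay above every other library, and TNF overlapped untreated. The means were 71.1 ± 2.89, 40.7 ± 3.50 and 36.5 ± 0.971 FPKM (SD, n = 3 each). TNF plus WBG stood 1.74-fold above TNF, a log2 fold change of 0.79 ± 0.06 (SE, here and below), and 0.94 ± 0.06 above untreated on the log2 scale. In TNF against untreated the log2 fold change was 0.15 ± 0.06 (limma adjusted p = 0.187). Without TNF replicate 2, the lowest of its group, it was 0.22 (limma adjusted p = 0.0327). Over all alternatives run the limma adjusted p of Tfrc there was 0.0327 to 0.422.

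Slc11a2 encodes DMT1, the ferrous iron transporter of endosomes and of the gut surface. It had 28.6, 31.3 and 30.4 FPKM in TNF plus WBG, 25.6, 24.6 and 24.8 FPKM in TNF, and 14.2, 14.8 and 14.9 FPKM in untreated libraries, so no group overlapped another. Slc11a2 rose 1.71-fold in TNF over untreated (log2 0.73 ± 0.05, limma adjusted p = 1.53e-05). TNF plus WBG was a further 0.26 ± 0.05 above TNF on the log2 scale, a difference not among those called, and 2.05-fold above untreated. It was the member next to Steap4 in the size of its rise in TNF.

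The remaining transporters had groups that overlapped in every comparison. Slc39a14, which encodes ZIP14, a zinc transporter that also carries iron not bound to transferrin, averaged 15.9 ± 0.461 FPKM in TNF plus WBG, 14.7 ± 2.28 FPKM in TNF and 17.2 ± 1.56 FPKM in untreated libraries. Its log2 fold change in TNF was -0.22 ± 0.10 (limma adjusted p = 0.226). TNF replicate 1, at 17.3 FPKM, stood above the 13.7 and 13.0 FPKM of the other TNF libraries. Without it the value was -0.34 (limma adjusted p = 0.0375), the call that this omission adds. Over all alternatives run the limma adjusted p of Slc39a14 there was 0.0375 to 0.493. Slc40a1 encodes ferroportin, the only known iron exporter of mammalian cells. It had 3.86, 3.51 and 3.99 FPKM in TNF plus WBG, 2.51, 3.73 and 3.07 FPKM in TNF, and 3.51, 3.77 and 3.19 FPKM in untreated libraries. At this low level its log2 fold change in TNF was -0.14 ± 0.11 (limma adjusted p = 0.509).

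Set against the exporter, the receptor gave a ratio of Tfrc to Slc40a1 FPKM of 18.7, 20.9 and 16.99 in TNF plus WBG, 16.9, 9.84 and 14.1 in TNF, and 10.6, 9.83 and 11.1 in untreated libraries. The ratio was above every untreated library in each TNF plus WBG library and overlapped untreated in TNF. It is a ratio of 2 mRNA levels and says nothing of iron flow.

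**Figure D2:**
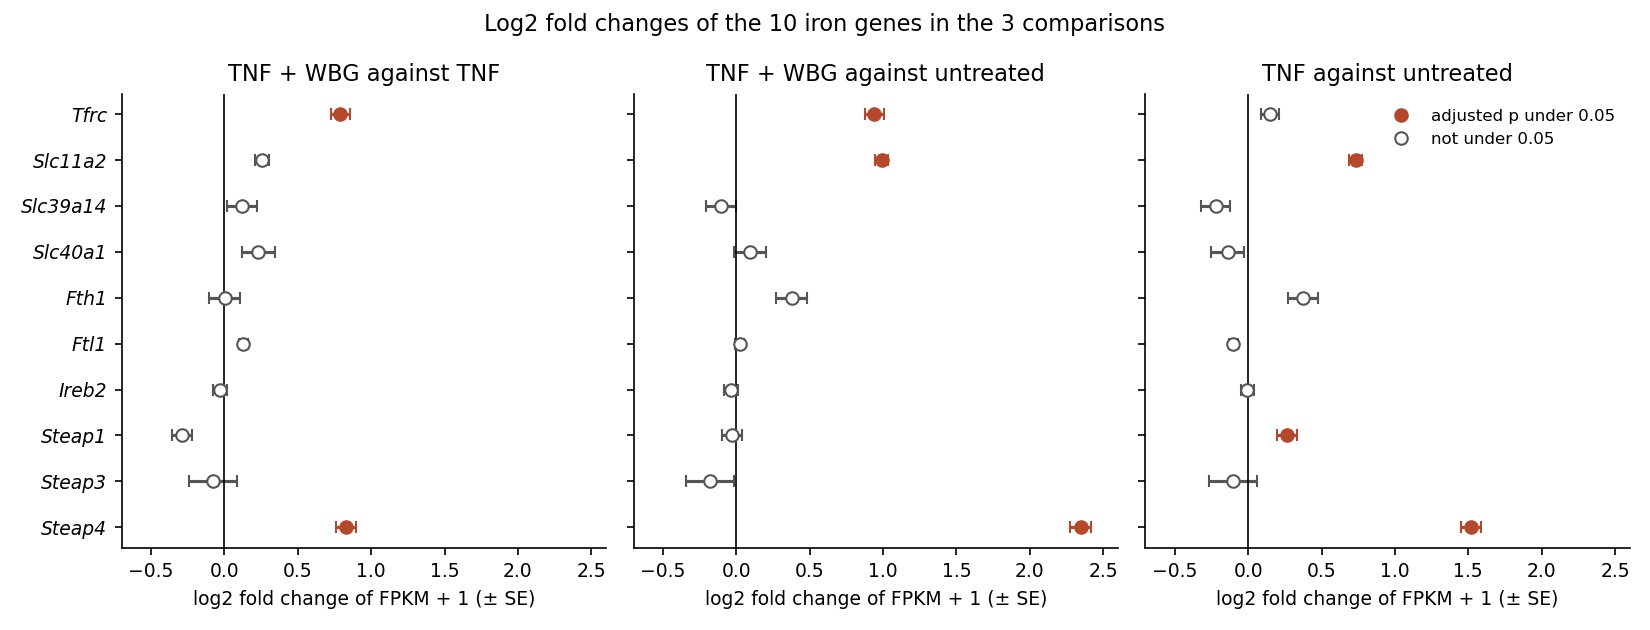
Log2 fold change of each member in the 3 comparisons, on the log2(FPKM + 1) scale, with whiskers for the SE and filled points for called genes, which for TNF plus WBG show values that chose the list and are no test. Steap4 stood at 0.83 in TNF plus WBG against TNF and 1.52 in TNF against untreated, and Tfrc at 0.79 and 0.15.

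The ferritin chains differed in their pattern over the groups. Fth1 encodes the heavy chain, which oxidises iron for storage, and had 647, 666 and 660.2 FPKM in TNF plus WBG, 644, 687 and 641 FPKM in TNF, and 413, 556 and 564 FPKM in untreated libraries. Both TNF groups lay above all untreated libraries, and untreated replicate 1 stood well below the other untreated libraries. In TNF against untreated Fth1 had a log2 fold change of 0.38 ± 0.10 and missed the threshold (limma adjusted p = 0.0539). Without untreated replicate 1 it was 0.23 (limma adjusted p = 0.0101), and without untreated replicate 3 it was 0.45 (limma adjusted p = 0.0444). Over all alternatives run the limma adjusted p of Fth1 there was 0.0101 to 0.152. TNF plus WBG and TNF differed by 0.00 ± 0.10 on the log2 scale.

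Ftl1 encodes the light chain, which helps form the iron core. It had 921, 981 and 963 FPKM in TNF plus WBG, 869.6, 886 and 867 FPKM in TNF, and 926, 941 and 948 FPKM in untreated libraries. TNF was below every library of both other groups, at a log2 fold change of -0.10 ± 0.03 against untreated (limma adjusted p = 0.0733), and TNF plus WBG overlapped untreated. Exons of Gm22133, annotated as a microRNA gene, lie within Ftl1 on the same strand, and Gm22133 was listed at 1042 to 1217 FPKM. The library kit does not mark strand, and Gm10252, on the opposite strand, overlaps Ftl1 at 0.765 to 2.17 FPKM. How reads were split between Ftl1, these genes and the ferritin pseudogenes (the highest, Ftl1-ps1, at 3.96 to 5.57 FPKM) is not known, so levels of Ftl1 carry that limit.

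The ratio of Fth1 to Ftl1 FPKM was 0.702, 0.679 and 0.685 in TNF plus WBG, 0.740, 0.774 and 0.739 in TNF, and 0.447, 0.591 and 0.595 in untreated libraries. No group overlapped another, and TNF had the highest ratios. The sum of both chains was 1568 to 1648 FPKM in TNF plus WBG, 1508 to 1573 FPKM in TNF and 1339 to 1512 FPKM in untreated libraries, so the sum in TNF overlapped both other groups. As both chains carry the same kind of hairpin in the 5′ untranslated region, printed above, these mRNA levels do not give protein levels.

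Ireb2 encodes IRP2, the iron-regulatory protein that the cell degrades when iron is plentiful, and its mRNA kept to a narrow range, 22.7 to 24.7 FPKM over the 9 libraries. The mean was 23.1 ± 0.526 FPKM in TNF plus WBG, 23.7 ± 0.904 FPKM in TNF and 23.8 ± 0.792 FPKM in untreated libraries. The log2 fold change in TNF was -0.01 ± 0.05 (limma adjusted p = 0.958), and the 3 groups overlapped.

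The STEAP genes encode metalloreductases of cell surface and endosome membranes, which reduce iron and copper, except that STEAP1 lacks the domain that binds NADPH. Steap4 had 42.3, 51.9 and 44.8 FPKM in TNF plus WBG, 25.7, 25.9 and 25.04 FPKM in TNF, and 8.00, 8.61 and 8.20 FPKM in untreated libraries. It stepped up between each group and the next with no overlap. Steap4 rose 3.09-fold in TNF over untreated (log2 1.52 ± 0.07, limma adjusted p = 2.67e-06). TNF plus WBG stood 1.81-fold above TNF (log2 0.83 ± 0.07) and 5.60-fold above untreated (log2 2.35 ± 0.07).

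Steap1 went another way. It had 16.5, 19.0 and 20.0 FPKM in TNF plus WBG, 23.7, 22.3 and 22.5 FPKM in TNF, and 18.6, 19.5 and 18.3 FPKM in untreated libraries. TNF was above all libraries of the other groups, which overlapped each other. The rise in TNF, a log2 fold change of 0.26 ± 0.07, passed narrowly (limma adjusted p = 0.0417). Leaving out single libraries ended this call in 7 of 9 cases, at adjusted p of 0.0588 to 0.125. It also ended with no filter on low values (adjusted p = 0.0897) and without the limma trend (adjusted p = 0.0551). TNF plus WBG was below TNF by a log2 fold change of -0.29 ± 0.07, not among the called differences.

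Steap3, the reductase that red cell precursors use for iron from transferrin, had 9.42, 12.5 and 8.79 FPKM in TNF plus WBG, 11.2, 9.72 and 11.4 FPKM in TNF, and 9.22, 14.5 and 11.6 FPKM in untreated libraries. Its groups overlapped throughout, with a log2 fold change in TNF of -0.10 ± 0.16 (limma adjusted p = 0.764). Steap2, the family member outside the list, was in the background list and averaged 23.9 ± 0.947 FPKM in TNF plus WBG, 25.8 ± 0.439 FPKM in TNF and 22.9 ± 1.12 FPKM in untreated libraries. It was not called in any comparison (limma adjusted p = 0.0631 in TNF against untreated), and is named here to complete the family.

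The make-up of the family shifted with Steap4. Its values in TNF plus WBG against TNF helped choose the list, so the shares and the sum are a description. Steap4 held 45.5, 48.3 and 46.4% of the summed FPKM of Steap1 to Steap4 in TNF plus WBG, 29.6, 31.0 and 29.7% in TNF, and 13.9, 13.0 and 13.4% in untreated libraries. The sum itself was 93.0 to 107.5 FPKM in TNF plus WBG, 83.7 to 86.8 FPKM in TNF and 57.5 to 66.4 FPKM in untreated libraries, with no overlap.

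**Figure D3:**
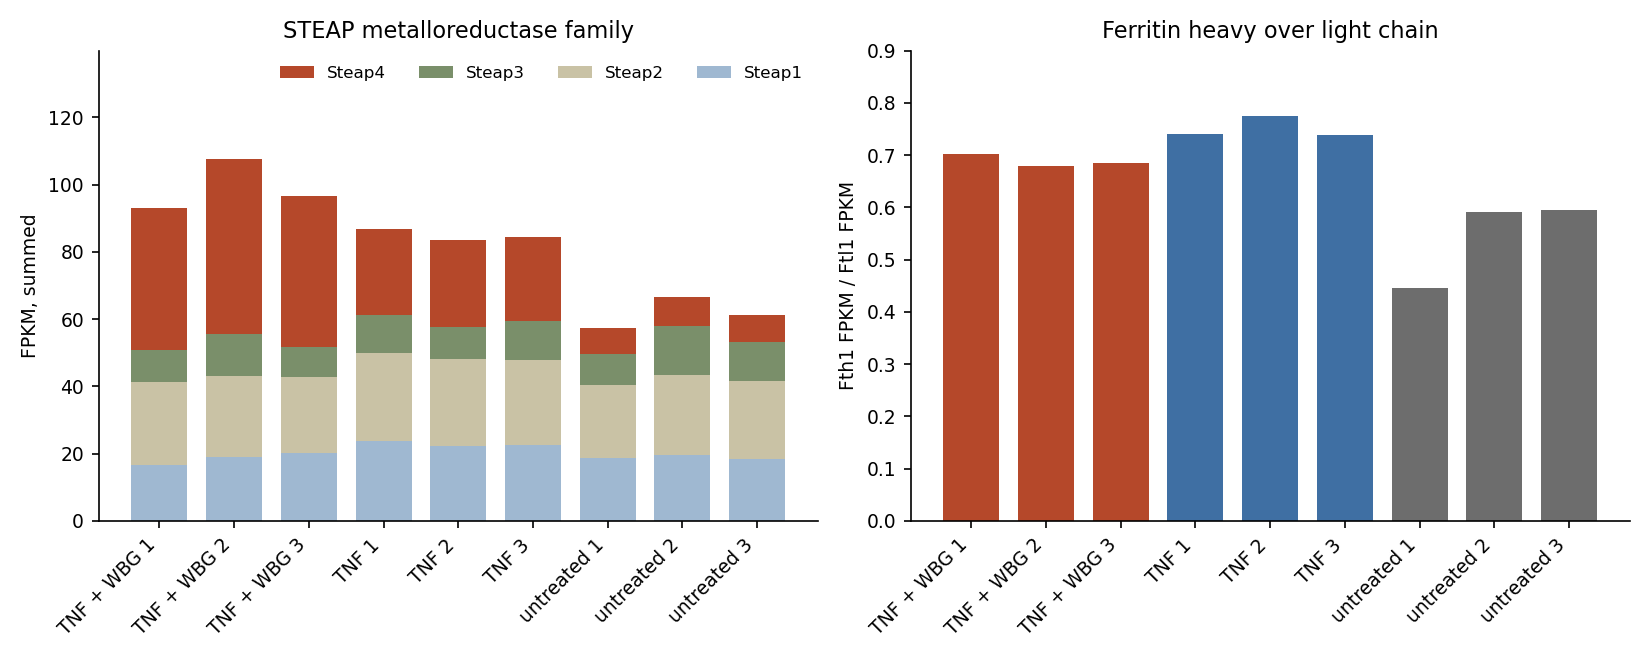
Left, FPKM of Steap1 to Steap4 stacked for each library; right, the ratio of Fth1 to Ftl1 FPKM in each library. The Steap4 share was 45.5 to 48.3% in TNF plus WBG, 29.6 to 31.0% in TNF and 13.0 to 13.9% in untreated libraries. Steap4 in TNF plus WBG helped choose the list, so its share there is no test. The ferritin ratio was highest in TNF (0.739 to 0.774).

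Steap4 is also known as an inflammation-responsive gene, and the sequence before its start site, from RefSeq (GRCm38.p6), is printed because this member changed most in TNF. It covers chr5:7960222-7960471 on the plus strand, 250 bases that end at the base before the start site. Capitals mark matches to the NF-κB consensus at -250 and -226, to TTCNNNGAA (the STAT pattern) at -116 and to TTGCNNAA (a C/EBP pattern) at -87, searched on both strands. None of the marked matches overlaps another.
Steap4 promoter: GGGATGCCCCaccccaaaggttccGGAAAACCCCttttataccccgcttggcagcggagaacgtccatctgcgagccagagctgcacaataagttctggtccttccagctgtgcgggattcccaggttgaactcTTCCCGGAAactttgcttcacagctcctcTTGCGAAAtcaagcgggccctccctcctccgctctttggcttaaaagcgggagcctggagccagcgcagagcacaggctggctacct
Over 32851 promoter entries of 300 bases, each reaching 50 bases past the start, 8.46% held the NF-κB match, 8.3% TTCNNNGAA, 10.8% TTGCNNAA and 19.6% ACGTG, the pattern of hypoxia-inducible factors. Of the 7 members in the promoter table, Steap3 and Ftl1 also held the NF-κB match, Steap3 and Fth1 the TTGCNNAA match, and Tfrc held ACGTG. Steap3 had 4 entries, all its matches lying in the same entry, and Tfrc and Fth1 had 2 each. The shares above are per entry, so members counted as genes cannot be set against them. A match describes letters and does not show that a factor binds.

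Other iron genes were taken from lists by role, 83 genes of which 63 were tested. In TNF against untreated 7 of the 63 (11.1%) were called, 6 higher and 1 lower, close to the 10.6% over all genes, with a median log2 fold change of 0.02. In TNF plus WBG against TNF limma called 0 of the 63, where 0.0998% of all genes were called. Groups did not overlap for 12 of the 63 (19% against 14.7% of all genes). At an unadjusted limma p under 0.05 there were 14 of the 63. The share of all genes at that threshold was not computed, so nothing is read from the 14. With no filter on low values 1 of 78 was called, Lcn2, described below. In TNF plus WBG against untreated 9 of the 63 (14.3%) were called, 7 higher and 2 lower, beside 9.19% of all genes. The counts in both comparisons against untreated include Slc11a1 and Trf. These genes passed the filter only through libraries given TNF, so both counts partly restate that choice.

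Cp encodes ceruloplasmin, a copper ferroxidase that works beside ferroportin. It had 157, 189 and 188 FPKM in TNF plus WBG, 114, 136 and 137 FPKM in TNF, and 75.6, 72.0 and 75.5 FPKM in untreated libraries. The groups stepped up without overlap. Cp rose in TNF against untreated (log2 0.78 ± 0.09, limma adjusted p = 6.36e-04) and in TNF plus WBG against untreated (log2 1.24, limma adjusted p = 4.14e-05). TNF plus WBG against TNF gave 0.46 on the log2 scale and did not pass (limma adjusted p = 0.262).

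Slc11a1 encodes NRAMP1, the metal transporter of phagosomes, and was close to absent without the cytokine. It averaged 1.51 ± 0.461 FPKM in TNF plus WBG, 2.29 ± 0.306 FPKM in TNF and 0.0551 ± 0.0572 FPKM in untreated libraries. It rose in TNF (log2 1.64, limma adjusted p = 9.42e-05) and in TNF plus WBG against untreated (log2 1.24, limma adjusted p = 6.08e-04). Trf, which encodes transferrin, averaged 2.48 ± 0.542, 2.70 ± 0.495 and 0.901 ± 0.0375 FPKM in TNF plus WBG, TNF and untreated libraries. It rose in TNF (log2 0.95, limma adjusted p = 0.00185), and the TNF groups overlapped. Slc11a1 and Trf passed the filter only through libraries given TNF, as every untreated library was below 1 FPKM for both. Their calls against untreated partly restate that choice and are no independent test. The fold changes of both genes are on the log2(FPKM + 1) scale, which understates changes of genes this low. For Slc11a1 in TNF against untreated the log2 value ran from 0.53 with a pseudocount of 5 to 4.01 with 0.1, and for Trf from 0.38 to 1.47.

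Among factors that break down Tfrc mRNA, Zc3h12a (the nuclease Regnase-1) averaged 12.7 ± 0.0977 FPKM in TNF plus WBG, 10.2 ± 0.385 FPKM in TNF and 5.98 ± 0.902 FPKM in untreated libraries, with no overlap. It rose in TNF (log2 0.69, limma adjusted p = 0.00127) and in TNF plus WBG against untreated (log2 0.98, limma adjusted p = 1.71e-04), and missed the test in TNF plus WBG against TNF (log2 0.29, limma adjusted p = 0.449). Its list mates Rc3h1 and Rc3h2, the roquins, were not called in any comparison. Zc3h12a and Tfrc were both highest in the TNF plus WBG libraries, and a link between them was not tested.

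In haem handling, Slc48a1, a haem transporter, averaged 63.3 ± 3.14 FPKM in TNF plus WBG, 70.0 ± 1.29 FPKM in TNF and 56.5 ± 2.00 FPKM in untreated libraries and rose in TNF (log2 0.31, limma adjusted p = 0.00275). Hmox1, the inducible haem oxygenase that frees iron from haem, averaged 23.5 ± 3.57, 19.4 ± 1.42 and 16.3 ± 1.81 FPKM in TNF plus WBG, TNF and untreated libraries. Its partner Hmox2 averaged 23.5 ± 1.41, 18.2 ± 4.0 and 13.8 ± 2.17 FPKM in the same groups. Both rose in TNF plus WBG against untreated, with a limma adjusted p of 0.0293 for Hmox1 and of 0.0150 for Hmox2, and neither passed in TNF against untreated. Fech, the last enzyme of haem synthesis, fell in TNF (log2 -0.33, limma adjusted p = 0.0375). Over all alternatives run the limma adjusted p of Fech was 0.0258 to 0.113 and its call ended in 5 of 9 omissions of a library. For Hmox1 in TNF plus WBG against untreated it was 0.0134 to 0.0975, and the call ended in 4 of 9 omissions. For Hmox2 in the same comparison 2 of 9 omissions lost the call.

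Of 22 mitochondrial iron and iron-sulfur genes tested, Nfu1, an iron-sulfur carrier, was the 1 gene called in TNF against untreated, where 10.6% of all genes were called, and in TNF plus WBG against untreated, where 9.19% were. Nfu1 averaged 26.7 ± 0.974, 26.7 ± 0.179 and 22.7 ± 0.675 FPKM in TNF plus WBG, TNF and untreated libraries (log2 0.23 in both comparisons, limma adjusted p = 0.00958 for TNF and 0.00974 for TNF plus WBG). Limma called 0 of 9 cytosolic genes in each comparison, with 3 at an unadjusted p under 0.05 in TNF plus WBG against TNF and 0 in the others. With so few genes tested, these counts do not set either list apart from all genes. Ciao2a, the highest cytosolic gene on the mean over all 9 libraries though below Ciao2b in TNF, averaged 22.5 ± 1.10, 23.02 ± 0.736 and 22.5 ± 0.468 FPKM in the same order. Among 6 genes of iron-regulatory protein control and ferritin turnover, Pcbp1, an iron chaperone of ferritin, fell in TNF plus WBG against untreated (log2 -0.14, limma adjusted p = 0.0428). Bmp6, a growth factor that induces hepcidin, fell there too (log2 -0.21, limma adjusted p = 0.0455), and both calls were lost in at least 7 of 9 omissions of a library.

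Of these named genes, 6 share exon sequence with a gene on the opposite strand that averaged above 1 FPKM: Bmp6 with Txndc5, Cp with Hps3, Hmox2 with Cdip1, Pcbp1 with 1600020E01Rik, Slc48a1 with Hdac7, and Ftl1 with Gm10252. Trf shares exons with Gm20425 on its own strand, a gene not analysed here. Txndc5 was listed at 63.3 to 118 FPKM, above Bmp6, so the values of Bmp6 are uncertain. Without strand marks, reads of such pairs cannot be told apart. Lcn2, which encodes the siderophore-binding lipocalin 2, was below the filter and chosen after its values were seen: it was listed at 0.470, 0.597 and 0.534 FPKM in TNF plus WBG and at 0 in every TNF and untreated library. The fit with no filter called Lcn2 in TNF plus WBG against TNF. As the gene was chosen after this difference was seen, that call is no test.

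**Figure D4:**
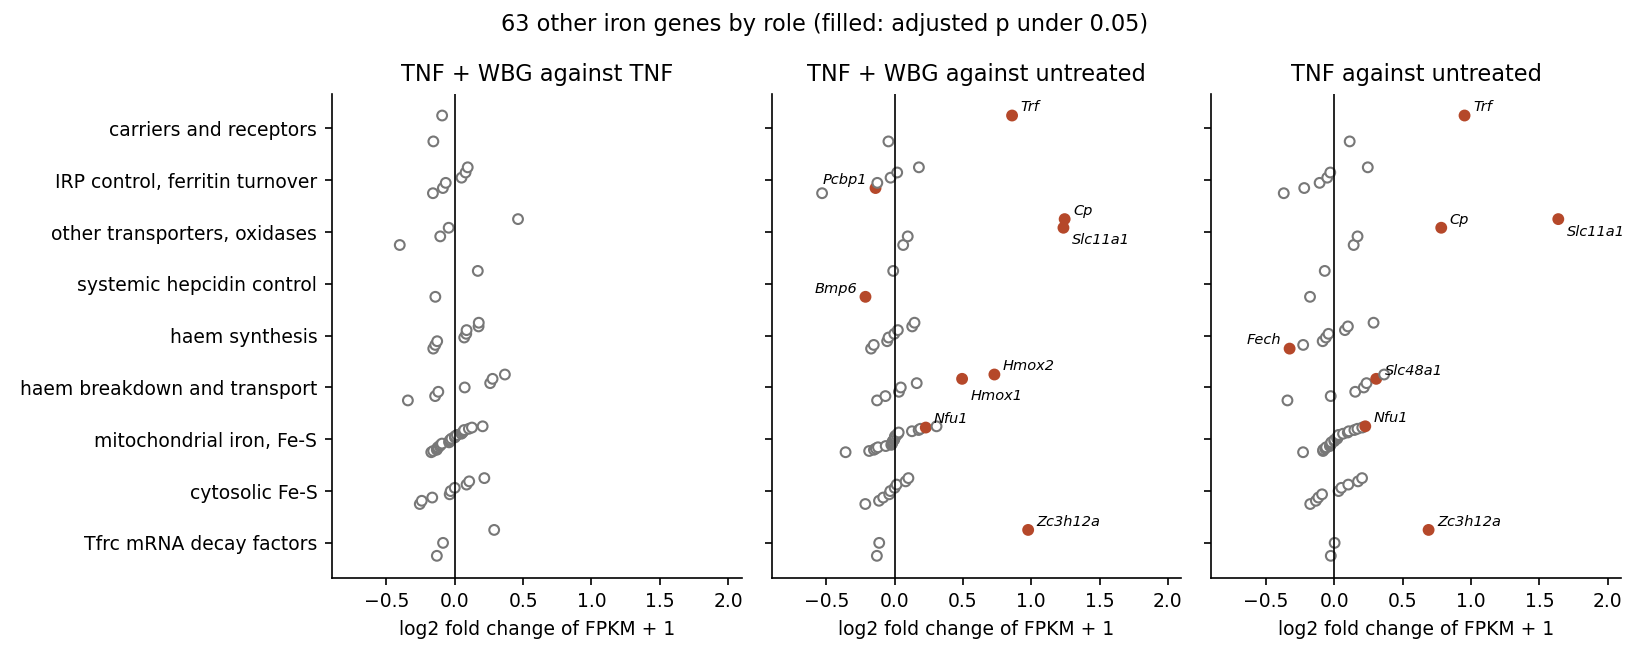
Log2 fold change of FPKM + 1 for each of the 63 other iron genes in the 3 comparisons, 1 line of points a list, with called genes filled and named. In TNF plus WBG against TNF 0 genes were called. Slc11a1 (1.64) and Trf (0.95) had the largest rises of called genes in TNF against untreated. Both passed the filter only through libraries given TNF.

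The genes whose levels ran most like a member's over the 9 libraries were ranked by Pearson's r of log2(FPKM + 1), as a description. The libraries share their groups, so r reflects the group steps. For Steap4 these were the chemokine gene Cxcl1 (r = 0.998), Slc11a2 (r = 0.993) and Cebpd (r = 0.993), the gene of a C/EBP transcription factor. Cxcl1 averaged 23.9 ± 3.16 FPKM in TNF plus WBG, 10.4 ± 0.987 FPKM in TNF and 1.37 ± 0.148 FPKM in untreated libraries, and Cebpd averaged 14.4 ± 1.25, 11.1 ± 0.283 and 7.003 ± 0.283 FPKM. For Tfrc they were Actr3 (r = 0.970), a subunit of the actin-branching Arp2/3 complex, Dlgap5 (r = 0.957), a mitotic spindle protein, and Coa3 (r = 0.942), an assembly factor of cytochrome c oxidase. Actr3 averaged 90.6 ± 1.32 FPKM in TNF plus WBG, 70.6 ± 0.967 FPKM in TNF and 69.1 ± 1.96 FPKM in untreated libraries, so that, like Tfrc, it stood apart in TNF plus WBG.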

How the data were processed

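Poly-A RNA of 9 libraries was sequenced as paired ends on an Illumina NovaSeq with a TruSeq RNA kit, per the labels' protocols. The values are FPKM, computed by the authors and deposited as 1 table of genes. Not given in the sources used here are the build, the aligner and the program and annotation behind the FPKM. GENCODE M21 gave symbols for 55144 of the IDs and none for 1145. The table holds no counts. If the step on which low values pile up is 1 fragment, depth was 18.9 to 26.1 M fragments. FPKM summed to 427781 to 436809 a library, and 12611 to 12737 genes reached 1 FPKM. Correlations between libraries were 0.987 to 0.989 within groups and 0.979 to 0.989 between them.

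Genes with at least 1 FPKM in at least 3 of 9 libraries were kept (13026). A single limma model (version 3.58.1, R 4.3.3, with trend) took log2(FPKM + 1) of all 9 libraries, with no term but group. Two-sided p-values were adjusted by Benjamini-Hochberg over all genes kept and called under 0.05. Fold values are ratios of mean FPKM. The members and the lists were chosen with earlier results of these data known. Named genes are all members; from each list of other iron genes up to 2 called per direction and comparison with the largest change, or the highest gene where none was called; and the 3 genes most correlated with Tfrc and with Steap4. Steap2, Lcn2, Rc3h1 and Rc3h2 are added. Alternatives were pseudocounts of 0.1 and 5, no filter, a mean of at least 5 FPKM, median-ratio scaling, quantile normalization, only the 6 libraries compared, no trend, robust limma, a replicate block and omission of each library. Tables and figures were made with matplotlib 3.10.9, pandas 2.3.3 and numpy 2.4.6 under python 3.11.15.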

Additional observations from a re-analysis of the deposited data

How the results depend on the processing

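In TNF plus WBG against TNF the alternatives gave log2 0.72 to 0.83 for Tfrc and 0.74 to 0.89 for Steap4, a direction fixed by the choice of the members and so no sign of stability. Steap4 and Slc11a2 stayed called in TNF against untreated. All genes called in TNF plus WBG against TNF numbered 13, 7 with only the 6 libraries compared, and 8 to 14 over omissions of a library (8 without untreated replicate 1). In TNF against untreated 1386 were called, and 919 to 1296 over omissions (919 without TNF replicate 3). Members called lower there were 0 to 1 over omissions, the 1 being Slc39a14. Libraries of the same number did not deviate together (r of -0.072 to 0.107), so numbers were not taken as pairs. With a replicate block 8 genes were called in TNF plus WBG against TNF, and Steap1 in TNF against untreated was no longer called (limma adjusted p = 0.0795). Signs turned for uncalled values near 0 and for no called value. In TNF plus WBG against TNF the log2 values over omissions were -0.024 to 0.027 for Nfu1 (-0.0021 in another), -0.056 to 0.0087 for Ciao2a and -0.21 to 0.012 for Trf (0.0057 in another). Fth1 gave -0.016 to 0.034 over all alternatives there and Steap3 -0.22 to 0.016 over omissions. In TNF against untreated they were -0.25 to 0.048 for Steap3 and -0.036 to 0.020 for Ireb2 (0.014 and 0.0033 in others). In TNF plus WBG against untreated Ciao2a gave -0.00081 under median-ratio scaling, -0.0075 under quantile normalization and -0.025 to 0.039 over omissions (-0.0058, -0.0099 and -0.013 in others), and Steap1 -0.084 to 0.048 over omissions. The cause of these changes was not tested. With FPKM alone no counting error can be given for low genes such as Slc40a1, and 3 libraries a group limit what small differences can pass.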
